A study of Mus musculus with 6 samples.

Results

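The 9 genes described here encode parts of the routes from C-type lectin receptors and NOD receptors to NF-κB, or relatives of the adapter CARD9. They were chosen by symbol: *Card9*, *Bcl10*, *Malt1*, *Card10*, *Syk*, *Prkcd*, *Nod1*, *Nod2* and *Ripk2*. Each symbol was matched to its NCBI gene number, and all 9 were found among the 17441 genes listed in any library. All 9 also passed the filter on low values, which asked for 2 or more libraries with an FPKM of 1 or more and left 13120 genes for testing. *Card9* reached an FPKM of 1 in 1 of the 2 sham libraries and passed through the infarct libraries, while the other 8 did so in all 6. FPKM, fragments per kilobase of transcript scaled to the mapped fragments of the library, is a level relative to gene length and to the other genes of that library.

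The RNA came from heart tissue below the ligature of male mice, 12 weeks old by the labels, taken 3 days after surgery. WT Sham were wild-type mice with a sham operation, WT MI were wild-type mice with myocardial infarction (MI) by ligation of the left coronary artery, and Card9 KO MI were mice labelled as *Card9* knockout (KO) with the same ligation. The strains were on a C57BL/6 background, the knockout line was made in earlier work whose allele is not described in the sources used here, and each group had 2 libraries. A sham-operated *Card9* knockout group was not analysed here, and the effects of genotype and of infarction cannot be told apart when Card9 KO MI is set against WT Sham. Nothing in the labels says which libraries came from separate mice, and p-values therefore measure the spread between these samples, which may be technical.

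CARD9 is an adapter of myeloid cells. Receptors such as Dectin-1 and Mincle, alone or through ITAM-bearing adaptors, recruit the tyrosine kinase SYK, which leads to activation of protein kinase C delta, encoded by *Prkcd*. That kinase phosphorylates CARD9, which then nucleates filaments of BCL10 that carry the paracaspase MALT1, and the complex recruits TRAF6, TAK1 and the IKK kinases. NOD1 and NOD2 sense bacterial peptidoglycan fragments in the cytosol and signal through the kinase RIPK2, a route in which CARD9 also takes part. In the infarcted heart, monocytes, macrophages and neutrophils enter the tissue in the first days.

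The labels were first checked with the targeted gene, and its level in both libraries labelled Card9 KO MI was above that in WT MI. *Card9* (gene number 332579, mm9 chr2:26207696-26216438, minus strand) was at 0.99 and 1.03 FPKM in WT Sham, at 3.39 and 5.08 FPKM in WT MI, and 9.85 and 6.94 FPKM in Card9 KO MI. Both libraries labelled Card9 KO MI were above both WT MI libraries, and these were above both sham libraries, so the 3 groups did not overlap. The group means were 1.01 ± 0.0283, 4.24 ± 1.20 and 8.40 ± 2.06 FPKM (SD, n = 2 each). The FPKM is a value for the whole gene and does not show which exons gave the fragments, and the lincRNA gene *Gm13562* lies on the opposite strand within the same interval, so that reads of both cannot be told apart where strand was not used in counting. Every direction given below for this group rests on its label. The deposited values behind *Card9* correspond to about 6.1 and 6.0 fragments in the WT Sham libraries, 26.5 and 38.6 in the WT MI libraries and 82.1 and 55.7 in Card9 KO MI, by depths estimated from the files.

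The estimated depth was 3005000 to 4280000 fragments per library, and 14935 to 15852 genes were listed in each. Of the summed FPKM, 16.1% and 16.4% came from the 10 most abundant genes in the WT Sham libraries, 10.6% in both WT MI libraries, and 8.99% and 10.1% in Card9 KO MI. FPKM is relative to the other genes of a library, and the part of this shift in the changes below was not tested. The median log2 change of the 13120 genes between WT MI and WT Sham was 0.19 as deposited, 0.05 after upper-quartile scaling and −0.09 after quantile normalization. The calls over all genes split into 3637 higher and 1232 lower as deposited, into 2832 and 1854 after upper-quartile scaling, and into 2198 and 2447 after quantile normalization. With Card9 KO MI in place of WT MI the split was 4569 and 1875 as deposited and 2755 and 3444 after quantile normalization. Changes of single genes are to be read against these medians.

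The 250 bases before the start of transcription are shown for *Card9*, which had the largest changes of the 9 genes against WT Sham in Card9 KO MI, for *Bcl10*, the only one of the 7 genes searched whose window held a motif, and for *Card10*, whose libraries overlapped in every comparison. The sequences are those of RefSeq on GRCm38.p6, another build than the mm9 positions given for the genes, and each reads 5′ to 3′ on the strand of its gene. The *Card9* window is chr2:26360910-26361159 (minus strand, 55.2% GC), the *Bcl10* window chr3:145924012-145924261 (plus strand, 62.4% GC) and the *Card10* window chr15:78803043-78803292 (minus strand, 76.0% GC). Capitals mark a match to the NF-κB consensus.
Card9: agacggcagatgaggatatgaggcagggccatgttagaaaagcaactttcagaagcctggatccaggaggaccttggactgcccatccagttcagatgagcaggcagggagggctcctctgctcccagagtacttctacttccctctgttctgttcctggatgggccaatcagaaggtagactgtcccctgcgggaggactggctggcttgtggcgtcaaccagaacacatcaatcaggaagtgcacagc
Bcl10: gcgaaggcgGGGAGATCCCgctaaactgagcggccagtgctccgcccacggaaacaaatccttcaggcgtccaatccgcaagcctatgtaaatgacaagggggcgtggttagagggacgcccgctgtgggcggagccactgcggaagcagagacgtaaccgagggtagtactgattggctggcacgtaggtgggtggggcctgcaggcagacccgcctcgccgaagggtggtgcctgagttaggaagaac
Card10: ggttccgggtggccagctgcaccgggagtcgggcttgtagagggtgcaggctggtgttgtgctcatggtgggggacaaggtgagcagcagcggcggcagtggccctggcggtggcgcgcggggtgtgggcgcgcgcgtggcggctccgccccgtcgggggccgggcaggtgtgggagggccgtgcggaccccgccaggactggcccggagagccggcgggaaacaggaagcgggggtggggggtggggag
The 3 motifs searched on both strands were the NF-κB consensus, the letters GAGGAAG of a purine-rich ETS site and the letters TGANTCA of AP-1. Windows of 7 of the 9 genes were searched, 10 windows in all. *Malt1* was left out of the search, and *Ripk2* had no window. The NF-κB consensus matched only the *Bcl10* window, 241 bases before the start, and 7.25% of all 32851 mouse windows held such a match. GAGGAAG and TGANTCA matched none of the 10 windows, and they occurred in 10.6% and 6.75% of all windows. A match is a description of the letters and not a site, and a window without one says only that these letters are not in it.

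**Figure D1:**
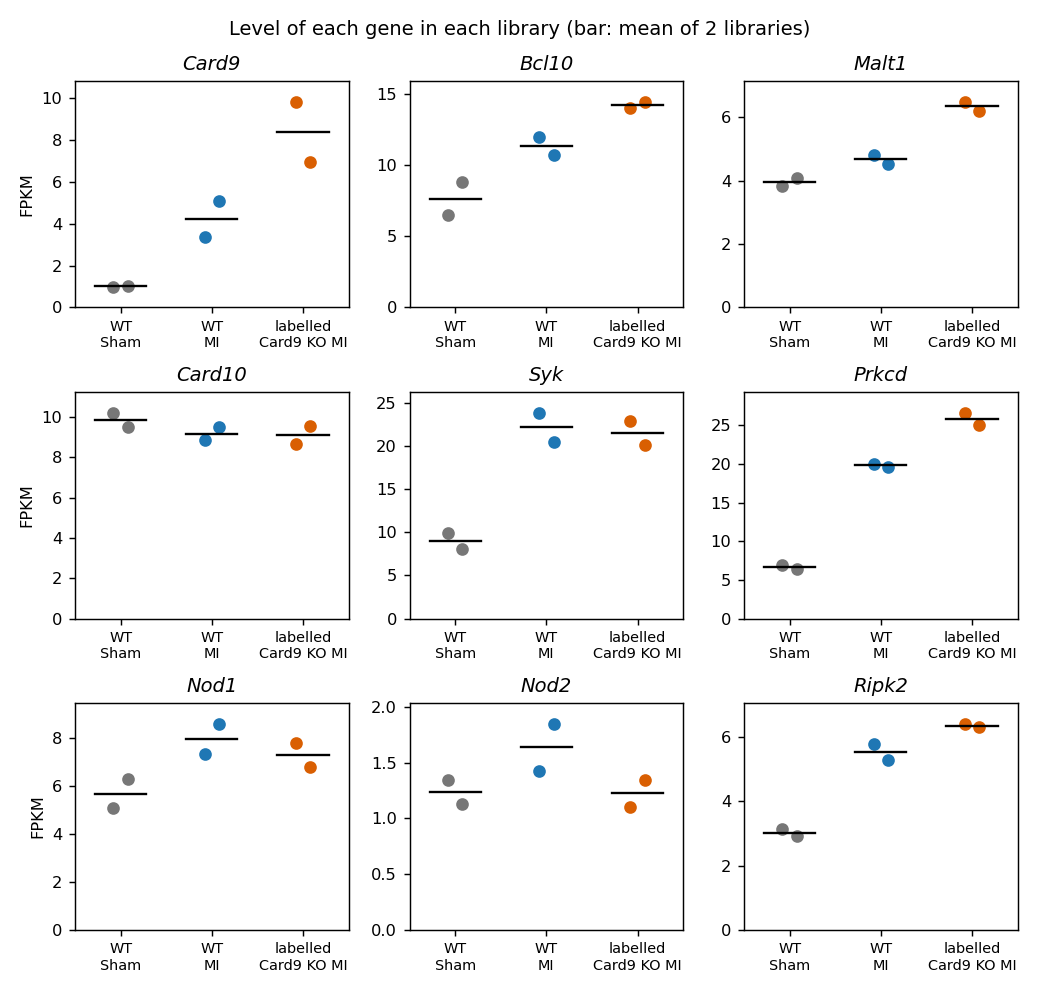
FPKM (y axis, from 0) of each of the 9 genes in the 2 libraries of WT Sham, WT MI and labelled Card9 KO MI (points), with the mean of the 2 libraries as a bar. *Card9* rises from 0.99 and 1.03 to 3.39 and 5.08 and to 9.85 and 6.94 FPKM, whereas *Card10* stays between 8.67 and 10.22 FPKM in all 6 libraries.

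The first comparison, WT MI against WT Sham, asks how the pathway genes responded to infarction in wild-type hearts. *Card9*, *Syk*, *Prkcd*, *Ripk2* and *Bcl10* rose, and no gene of the 9 fell, by limma on log2(FPKM + 1) with Benjamini-Hochberg adjustment over all 13120 genes at 0.05. Over all genes tested 37.1% were called, 27.7% higher and 9.39% lower. The median log2 change was 0.52 over the 9 genes and 0.19 over all genes. The WT MI libraries were both above the WT Sham libraries for 8 of the 9 genes, which was so for 48.3% of all genes, with 22.1% all lower, and *Card10* was the gene whose libraries overlapped. The count of 5 genes called fell to 3 when WT MI replicate 1 was left out.

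Among the kinases upstream of CARD9, *Syk* (gene number 20963, listed as *Sykb* in the mm9 annotation, chr13:52678542-52744161, plus strand) was at 9.85 and 8.06 FPKM in WT Sham and at 23.82 and 20.49 FPKM in WT MI. Both infarct libraries exceeded both sham libraries, and the ratio of means was 2.47. The log2 change was 1.22 ± 0.15 (SE), with an adjusted p of 6.5e-04 (limma, Benjamini-Hochberg). *Prkcd* (gene number 18753, chr14:31408542-31439396, minus strand) was at 6.99 and 6.47 FPKM in WT Sham and at 20.02 and 19.59 FPKM in WT MI. It had the least spread of the genes that rose relative to its change, and its groups lay far apart. Its log2 change was 1.43 ± 0.11 (SE), with an adjusted p of 1.3e-04 (limma, Benjamini-Hochberg) and a ratio of means of 2.94. Both genes kept their calls in all 14 alternative settings run.

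*Card9* itself, the adapter that these kinases feed, rose 4.19-fold in mean FPKM. Its log2 change was 1.36 ± 0.23 (SE), with an adjusted p of 0.0032 (limma, Benjamini-Hochberg), and the pseudocount of 1 lowers the log2 change of a gene this low. The call held in the 13 settings that tested the gene, where the log2 change lay between 0.61 and 1.94. *Card10*, a scaffold of the same family found outside blood cells, was at 10.22 and 9.49 FPKM in WT Sham and at 8.87 and 9.49 FPKM in WT MI (gene number 105844, chr15:78605568-78633472, minus strand). Its groups met at 9.49 FPKM. Its log2 change was −0.09, with a 95% interval from −0.40 to 0.21 and an adjusted p of 0.619 (limma, Benjamini-Hochberg).

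Of the pair that forms the filament with CARD9, *Bcl10* passed the test and *Malt1* did not. *Bcl10* (gene number 12042, chr3:145587322-145597247, plus strand) was at 6.49 and 8.83 FPKM in WT Sham and at 11.98 and 10.72 FPKM in WT MI. The groups did not overlap, although the sham libraries differed from each other more than the infarct libraries did. The log2 change was 0.52 ± 0.16 (SE), with an adjusted p of 0.0366 (limma, Benjamini-Hochberg). The adjusted p ranged from 0.0201 to 0.226 over 14 alternative settings, and the call was lost in 9 of them, among these the fits without WT Sham replicate 1 (log2 change 0.33, adjusted p 0.163), WT MI replicate 1 (0.45, 0.172) or WT MI replicate 2 (0.60, 0.0851). *Malt1* (gene number 240354, chr18:65590617-65638477, plus strand) was at 3.85 and 4.1 FPKM in WT Sham and at 4.83 and 4.53 FPKM in WT MI. Its libraries did not overlap, yet its log2 change of 0.19 was that of the median gene, with an adjusted p of 0.356 (limma, Benjamini-Hochberg), and it turned to −0.13 after quantile normalization.

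In the NOD arm, the kinase gene rose and the receptor genes did not pass the test. *Ripk2* (gene number 192656, chr4:16049880-16090794, minus strand, overlapping an annotated miRNA gene on the same strand) was at 3.13 and 2.92 FPKM in WT Sham and at 5.79 and 5.3 FPKM in WT MI. All infarct values were above all sham values. The log2 change was 0.70 ± 0.15 (SE), with an adjusted p of 0.0094 (limma, Benjamini-Hochberg), and the call was lost without WT MI replicate 1 (log2 change 0.65, adjusted p 0.0640) and after quantile normalization (adjusted p 0.0893). *Nod1* (gene number 107607, chr6:54873936-54922606, minus strand) was at 5.07 and 6.27 FPKM in WT Sham and at 7.34 and 8.59 FPKM in WT MI. Its groups did not overlap, but the test gave a log2 change of 0.43 ± 0.16 (SE) and an adjusted p of 0.0771 (limma, Benjamini-Hochberg). *Nod2* (gene number 257632, chr8:91171214-91212373, plus strand) was low throughout, at 1.35 and 1.13 FPKM in WT Sham and at 1.43 and 1.85 FPKM in WT MI. These values stand on about 16.0 to 34.1 fragments a library. The log2 change of *Nod2* was 0.23 ± 0.22 (SE), with an adjusted p of 0.430 (limma, Benjamini-Hochberg), and it was −0.12 after quantile normalization.

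**Figure D2:**
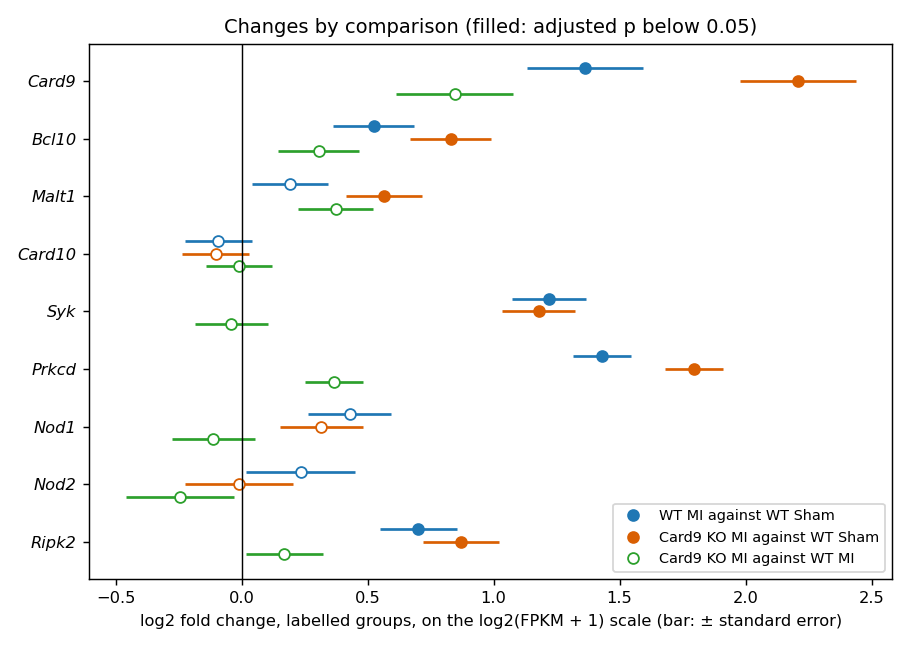
Log2 change on the log2(FPKM + 1) scale (x axis) of the 9 genes (y axis) in the 3 comparisons, which share libraries, with bars of 1 standard error and filled points for an adjusted p under 0.05. Filled points stand for 5 genes in WT MI against WT Sham and for 6 in labelled Card9 KO MI against WT Sham, and every point of Card9 KO MI against WT MI is open. Quantile normalization turned the sign of *Malt1* (−0.13) and *Nod2* (−0.12) in the first of these and of *Nod1* (−0.06) in the second.

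The second comparison, Card9 KO MI against WT MI, asks what differed between infarcted hearts labelled as knockout and as wild-type. None of the 9 genes passed the test (limma, Benjamini-Hochberg). Over all genes tested 1.4% were called, 0.816% higher and 0.587% lower. Unadjusted p-values were under 0.05 for 3 of the 9, *Card9*, *Prkcd* and *Malt1*, each with a higher mean in Card9 KO MI, and for 20% of all genes, 11.5% with a higher mean there. The median log2 change was 0.17 over the 9 genes and 0.04 over all genes. For 5 of the 9 both Card9 KO MI libraries were above both WT MI libraries, against 30.8% of all genes, and for *Nod2* both were below, against 21.9%.

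For *Card9*, the ratio of means was 1.98 and the log2 difference was 0.85 ± 0.23 (SE), with a 95% interval from 0.31 to 1.38 and an adjusted p of 0.112 (limma, Benjamini-Hochberg). The difference was in the same direction in all settings that tested the gene, from 0.53 to 1.08, with an adjusted p of 0.0856 to 0.447. With 1 library of either group left out, it was 0.61 to 1.08.

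*Prkcd* was at 26.6 and 25.03 FPKM in Card9 KO MI, above both WT MI libraries. Its log2 difference was 0.37 ± 0.11 (SE), with an adjusted p of 0.143 (limma, Benjamini-Hochberg). *Malt1* was at 6.5 and 6.21 FPKM there and differed by 0.37 ± 0.15 (SE) on the log2 scale, with an adjusted p of 0.221. *Bcl10*, at 14.03 and 14.48 FPKM, and *Ripk2*, at 6.41 and 6.3 FPKM, also lay above WT MI in both libraries. Their log2 differences were 0.31 and 0.17, with adjusted p-values of 0.337 and 0.586 (limma, Benjamini-Hochberg).

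The groups overlapped for *Syk*, *Card10* and *Nod1*. *Syk* was at 22.92 and 20.06 FPKM in Card9 KO MI, and its log2 difference of −0.04 had a 95% interval from −0.38 to 0.30. *Card10* was at 8.67 and 9.54 FPKM, with a log2 difference of −0.01 and an interval from −0.32 to 0.30. Both signs turned when single libraries were left out. *Nod1* was at 7.8 and 6.77 FPKM, with a log2 difference of −0.11 and an interval from −0.50 to 0.27, and the difference was −0.21 to −0.012 with 1 library left out. *Nod2* was at 1.1 and 1.35 FPKM, below both WT MI values, with a log2 difference of −0.24 and an interval from −0.75 to 0.26. All 4 intervals span 0 and leave room for a change in either direction.

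The third comparison sets Card9 KO MI against WT Sham and shares its libraries with the other comparisons. *Card9*, *Prkcd*, *Syk*, *Ripk2*, *Bcl10* and *Malt1* were called higher and none of the 9 lower (limma, Benjamini-Hochberg), while 49.1% of all genes were called, 34.8% higher and 14.3% lower. The median log2 change was 0.83 over the 9 genes and 0.24 over all genes. For 7 of the 9 both Card9 KO MI libraries were above both WT Sham libraries, as for 51.6% of all genes, and none had both below, as 24.5% of all genes had. *Card9* had a log2 change of 2.21 ± 0.23 (SE, adjusted p 2.2e-04), which lay between 1.15 and 2.91 over the settings, and its ratio of means was 8.31. *Prkcd* changed by 1.79 ± 0.11 (adjusted p 2.8e-05) and *Syk* by 1.18 ± 0.15 (adjusted p 4.5e-04). The changes of *Ripk2* (0.87, adjusted p 0.0024) and *Bcl10* (0.83, adjusted p 0.0040) were smaller. *Malt1* changed by 0.56 (adjusted p 0.0163), a call that was lost after quantile normalization (adjusted p 0.417) and without WT Sham replicate 1 (0.53, adjusted p 0.0613), Card9 KO MI replicate 1 (0.54, 0.0820) or Card9 KO MI replicate 2 (0.59, 0.0530). *Nod1* (0.32, adjusted p 0.150), *Nod2* (−0.01, 0.974) and *Card10* (−0.10, 0.544) did not pass.

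Because FPKM is per length, the levels of the 9 genes could be ordered within a group. In WT Sham the order of mean FPKM was *Card10*, *Syk*, *Bcl10*, *Prkcd*, *Nod1*, *Malt1*, *Ripk2*, *Nod2* and *Card9*, and the libraries of each neighbouring pair from *Card10* to *Prkcd* overlapped. *Card9* was thus the lowest of the 9 in WT Sham. In WT MI the order was *Syk*, *Prkcd*, *Bcl10*, *Card10*, *Nod1*, *Ripk2*, *Malt1*, *Card9* and *Nod2*, and only *Malt1* and *Card9* overlapped. In Card9 KO MI it was *Prkcd*, *Syk*, *Bcl10*, *Card10*, *Card9*, *Nod1*, *Malt1*, *Ripk2* and *Nod2*, and *Card9* overlapped with both *Card10* and *Nod1*, as *Malt1* did with *Ripk2*.

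The makeup of *Card9*, *Card10* and *Card14*, CARD scaffold genes whose products bind BCL10, was computed within each library. *Card9* held 8.31% and 9.35% of the summed FPKM of the 3 genes in the WT Sham libraries, 25.5% and 32.1% in the WT MI libraries and 49.0% and 38.8% in Card9 KO MI. *Card10* held 85.7% and 86.1% in the WT Sham libraries, 66.6% and 59.9% in the WT MI libraries and 43.2% and 53.4% in Card9 KO MI. The groups did not overlap in either share, and a single scaling factor for a library does not alter its shares. *Card10* thus went from 10.3 and 9.21 times the FPKM of *Card9* in the sham libraries to 2.62 and 1.87 times in WT MI and 0.880 and 1.37 times in Card9 KO MI. *Malt1* went from 3.89 and 3.98 times the FPKM of *Card9* to 1.42 and 0.892 times, and to 0.660 and 0.895 times in Card9 KO MI.

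*Card14*, the scaffold of skin, was at 0.71 and 0.5 FPKM in WT Sham, 1.05 and 1.27 FPKM in WT MI, and 1.57 and 1.39 FPKM in Card9 KO MI. The 3 groups did not overlap. Both WT Sham values were under 1 FPKM, so *Card14* passed the filter through the infarct libraries alone. Its log2 change in WT MI was 0.43, with an adjusted p of 0.166 (limma, Benjamini-Hochberg).

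**Figure D3:**
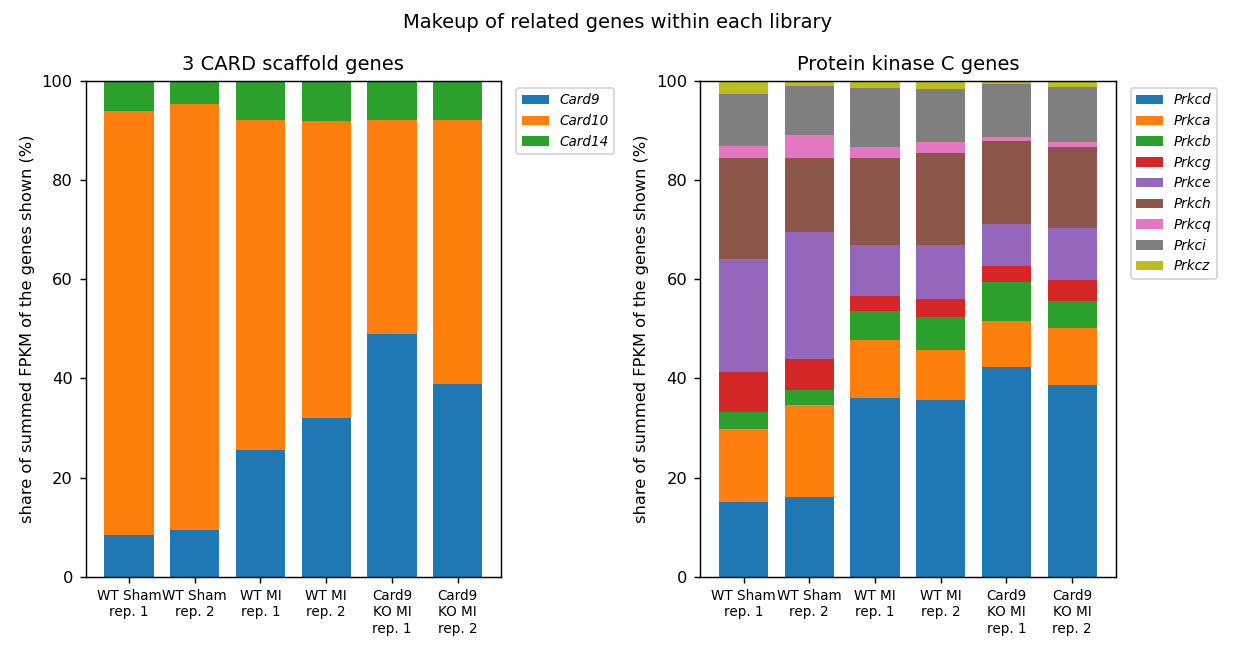
Share of the summed FPKM of related genes (y axis, percent) held by each gene in each of the 6 libraries (bars), for 3 CARD scaffold genes (left) and 9 protein kinase C genes (right). *Card9* takes 8.31% to 9.35% of the 3 genes in WT Sham and 25.5% or more in the other libraries, and *Prkcd* takes 15.0% to 16.2% and 35.6% or more.

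The same was done for the protein kinase C genes. *Prkcd* held 15.0% and 16.2% of the summed FPKM of 9 isoform genes in the WT Sham libraries, 36.1% and 35.6% in the WT MI libraries and 42.3% and 38.7% in Card9 KO MI. *Prkce*, an isoform abundant in heart muscle, held 22.8% and 25.5% in the WT Sham libraries, 10.3% and 10.9% in the WT MI libraries and 8.52% and 10.5% in Card9 KO MI. The FPKM of *Prkcd* was 0.660 and 0.634 times that of *Prkce* in WT Sham, 3.51 and 3.27 times in WT MI, and 4.96 and 3.70 times in Card9 KO MI. In the RIP kinase family the share of *Ripk2* was lower in the 4 infarct libraries than in both sham libraries. It was 47.6% and 47.3% in the WT Sham libraries, 26.1% and 27.4% in the WT MI libraries and 22.5% and 27.8% in Card9 KO MI. *Nod1* kept 79.0% to 87.6% of the summed FPKM of the NOD receptor pair in all 6 libraries, and those ranges overlapped between the groups.

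Beyond the 9 genes, 61 genes in 8 lists stand around the pathway, of which 56 passed the filter. Between WT MI and WT Sham 17 of the 56 were called higher and 2 lower (limma, Benjamini-Hochberg), against 27.7% and 9.39% of all genes. The median log2 change was 0.26 over the 56 and 0.19 over all genes. The C-type lectin receptors and their ITAM adaptors rose in 6 of 6, with a median of 2.85. Among them *Clec4d*, the receptor MCL, changed by 4.07, *Clec4n*, Dectin-2, by 2.98, *Clec4e*, Mincle, by 2.48 and *Clec7a*, Dectin-1, by 1.60 on the log2 scale. *Clec4d* was at 0.48 FPKM in WT Sham replicate 1 and not listed in replicate 2. *Clec4e* was not listed in replicate 1 and at 0.13 FPKM in replicate 2, so both passed the filter through the infarct libraries alone. *Clec4n*, at 1.96 and 0.88 FPKM in WT Sham, also needed the infarct libraries to pass, which favours a rise of these 3 genes. Their size and order depend on the pseudocount, and over the settings *Clec4d* lay between 2.22 and 6.34, *Clec4e* between 0.97 and 5.05 and *Clec4n* between 1.82 and 3.64. *Fcer1g* and *Tyrobp*, which encode ITAM-bearing adaptors that recruit SYK, changed by 2.95 and 2.75. The call of *Clec7a* (adjusted p 0.0120) was lost without WT Sham replicate 2 (log2 change 1.17, adjusted p 0.0683), WT MI replicate 1 (1.62, 0.0651) or WT MI replicate 2 (1.58, 0.0646).

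Of the partners and regulators of CARD9 and SYK, 5 of 10 tested rose and 1 fell, against 27.7% and 9.39% of all genes. *Vav1*, a guanine nucleotide exchange factor of blood cells, changed by 1.99, the phosphatase gene *Ptpn6* by 1.78, the kinase gene *Lyn* by 1.40 and the phospholipase gene *Plcg2* by 1.27 on the log2 scale. *Vav3* changed by 0.80 (adjusted p 0.0123) and *Ptpn11*, which encodes the phosphatase SHP2, by −0.39 (adjusted p 0.0126). These last calls were lost without WT Sham replicate 2 (0.67 and −0.38), WT MI replicate 1 (0.78 and −0.38) or WT MI replicate 2 (0.83 and −0.41), and that of *Vav3* also after quantile normalization (0.45, adjusted p 0.0884). Over the settings, *Vav1* lay between 0.94 and 2.81 and *Plcg2* between 0.83 and 1.44. *Vav1*, at 1.1 and 0.57 FPKM in WT Sham, needed the infarct libraries to pass the filter, which favours a rise.

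Of the other protein kinase C genes, *Prkcb* rose by 0.93 and *Prkce* fell by 0.74 on the log2 scale, and the median was −0.15. That is 1 of 7 tested higher and 1 of 7 lower, against 27.7% and 9.39% of all genes. The call of *Prkcb* was lost without WT Sham replicate 2 (0.83, adjusted p 0.0516) or WT MI replicate 2 (0.88, 0.0596) and after quantile normalization (0.58, 0.0522), and that of *Prkce* without WT MI replicate 1 (−0.71, 0.0520). Both tested RIP kinases rose, *Ripk3* by 2.15 (1.11 to 2.89 over the settings) and *Ripk1* by 1.31 (0.73 to 1.61). *Ripk3*, at 1.35 and 0.7 FPKM in WT Sham, needed the infarct libraries to pass the filter, which favours a rise. *Ripk4* and *Zap70* did not pass it.

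For the remaining lists the background was again 27.7% of all genes called higher. In the NOD arm, a list of partners and peptide transporters, 2 of 13 tested genes rose. *Slc15a3*, a lysosomal peptide transporter that can carry muramyl dipeptide, changed by 2.18 on the log2 scale. *Birc3*, a ubiquitin ligase of the RIPK2 complex, changed by 0.75. The call of *Birc3* was lost after quantile normalization (0.42, adjusted p 0.0697). The TRAF6-TAK1-IKK module had 0 of 9 called and a median of 0.03, with 0 of 9 at an unadjusted p under 0.05, against 46.8% of all genes. Its largest log2 change was that of *Ikbkb*, which encodes IKKβ, at 0.33 (adjusted p 0.145). Of the MALT1 substrates 1 of 8 was called, *Tnfaip3*, which encodes the deubiquitinase A20, with a log2 change of 0.65 and an adjusted p of 0.0310. That call was lost in 7 of 13 settings, each fit without 1 library among them (0.59 to 0.71, adjusted p 0.0735 to 0.131). Of the other *Card* genes 0 of 3 were called, and 1 of 3, *Card19*, had an unadjusted p under 0.05. Differences between the lists were not tested.

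**Figure D4:**
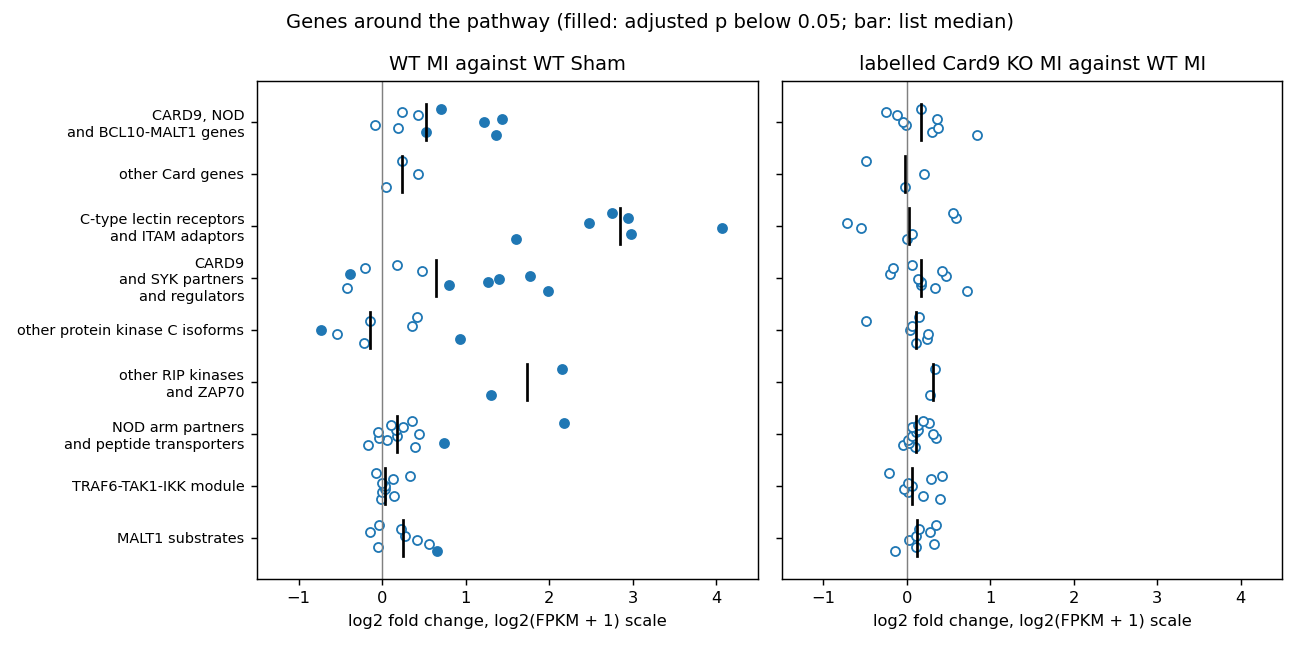
Log2 change on the log2(FPKM + 1) scale (x axis) of each tested gene in the 9 genes and the 8 lists around them (y axis), for WT MI against WT Sham (left) and labelled Card9 KO MI against WT MI (right), with a bar at each median and filled points for an adjusted p under 0.05. The C-type lectin receptors and ITAM adaptors lie between 1.60 and 4.07 on the left with a median of 2.85, whereas the TRAF6-TAK1-IKK module has a median of 0.03, and no point on the right is filled.

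Between Card9 KO MI and WT MI 0 of the 56 genes were called (limma, Benjamini-Hochberg), 9 had an unadjusted p under 0.05, and 7 of these were higher in Card9 KO MI, where all genes gave 20% and 11.5%. The smallest adjusted p was 0.0640, that of *Card19*, a gene also known as a binding partner of BCL10. It was at 98.99 and 90.42 FPKM in WT MI and at 67.75 and 66.56 FPKM in Card9 KO MI. Its groups did not overlap, and its log2 difference was −0.49 ± 0.10 (SE). *Vav1* differed by 0.72, *Fcer1g* by 0.59, *Tyrobp* by 0.56 and *Ptpn6* by 0.47, with adjusted p-values of 0.115 to 0.141. The log2 differences of *Clec4e* and *Clec4d* were −0.72 and −0.55 (adjusted p 0.222 and 0.323).

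Against WT Sham, 26 of the 56 genes were called higher in Card9 KO MI and 3 lower (limma, Benjamini-Hochberg), against 34.8% and 14.3% of all genes. The median log2 change was 0.40 over the 56 and 0.24 over all genes. The lectin receptors and adaptors gave 6 of 6 higher, the partners and regulators 6 of 10, the NOD arm 6 of 13, the MALT1 substrates 3 of 8, the RIP kinases 2 of 2, the protein kinase C genes 2 of 7 and the other *Card* genes 1 of 3. The last was *Card14*, with a log2 change of 0.63 and an adjusted p of 0.0463. It was at 0.71 and 0.5 FPKM in WT Sham and passed the filter through the infarct libraries alone. The call of *Card14* was lost in 10 of 13 settings, each fit without 1 library among them (0.54 to 0.72, adjusted p 0.0759 to 0.164). *Ikbkb*, at 6.9 and 7.55 FPKM in WT Sham and at 14.71 and 11.09 FPKM in Card9 KO MI, was the gene of 9 in the TRAF6-TAK1-IKK module that was called, by 0.75. Its call was lost after quantile normalization (0.42, adjusted p 0.0571). *Rbck1*, counted in both the NOD arm and the MALT1 substrates, and *N4bp1* each lost the call in 10 of 14 settings. Calls were also lost for *Xiap* and *Prkci* in 6 of 14, *Trim62* in 4 of 13, and *Relb* and *Slc15a4* in 3 of 14. *Trim62*, at 0.78 and 0.61 FPKM in WT Sham, passed the filter through the infarct libraries alone. *Clec4d*, *Clec4e*, *Clec4n*, *Vav1* and *Ripk3* also needed those libraries, which favours a rise. *Prkce* (−0.70), *Ptpn11* (−0.59) and *Usp15*, a deubiquitinase of CARD9 (−0.38), were lower, and the call of *Usp15* was lost without WT Sham replicate 1 (−0.32, adjusted p 0.0935) or Card9 KO MI replicate 1 (−0.33, 0.0951). The count of 26 was 16 without Card9 KO MI replicate 1.

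Levels of cell type markers were set beside these genes. In bulk tissue, fewer or more cells of a type and less or more RNA per cell cannot be told apart. The summed FPKM of 10 macrophage markers was 356 and 297 in the WT Sham libraries, 1297 and 1649 in the WT MI libraries and 2625 and 1877 in Card9 KO MI. All 10 were called higher in WT MI, against 27.7% of all genes. Between Card9 KO MI and WT MI 0 of the 10 were called, and 5 of 10 had an unadjusted p under 0.05, against 20% of all genes. Both Card9 KO MI libraries were above both WT MI libraries for 6 of 10, against 30.8% of all genes. The summed FPKM of the neutrophil markers was 7.64 and 5.40 in the WT Sham libraries, 212 and 93.1 in the WT MI libraries and 59.8 and 46.7 in Card9 KO MI. All 6 tested neutrophil markers were called higher in WT MI, against 27.7% of all genes. *Mmp8* and *Retnlg* were under 1 FPKM in both WT Sham libraries, and *S100a8* and *S100a9* in WT Sham replicate 2. These genes thus needed the infarct libraries to pass the filter, which favours a rise. *Ngp* did not pass, and *Ly6g* was not listed in any library. The 6 tested neutrophil markers were below WT MI in both Card9 KO MI libraries, as 21.9% of all genes were. Of them 0 of 6 were called there, with 2 of 6 at an unadjusted p under 0.05, against 20% of all genes.

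The sum of 7 cardiomyocyte markers was 42607 and 44404 FPKM in the WT Sham libraries, 27254 and 27891 in the WT MI libraries and 22538 and 26201 in Card9 KO MI. Of these, 5 of 7 were called lower in WT MI, against 9.39% of all genes. The sum of 6 fibroblast markers was 440 and 421 in the WT Sham libraries, 1065 and 1456 in the WT MI libraries and 2416 and 2332 in Card9 KO MI. Here 4 of 6 were called higher in WT MI, against 27.7% of all genes. Between Card9 KO MI and WT MI 3 of these 6, *Postn*, *Col1a1* and *Col1a2*, were called higher, against 0.816% of all genes. *Pdgfra* went the other way, from 15.2 and 15.87 FPKM in WT MI to 10.64 and 10.43 FPKM in Card9 KO MI. Its log2 difference was −0.52 (limma adjusted p 0.0939). *Tcf21* (0.62) and *Dcn* (−0.16) were not called either. The sums of endothelial markers (294 to 371 FPKM), T cell markers (3.75 to 6.24 FPKM) and B cell markers (1.31 to 5.27 FPKM) over all 6 libraries are given as ranges. In WT MI, 1 of 6 endothelial markers was called higher and 1 lower, 0 of 3 tested T cell markers were called, and 1 of 2 tested B cell markers was higher. All genes gave 27.7% higher and 9.39% lower. The B cell gene called was *Cd79b*, at 0.78 FPKM in WT Sham replicate 1 and not listed in replicate 2. It passed the filter through the infarct libraries alone, which favours a rise. The part of these cell types in the changes of the 9 genes was not tested.

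The 9 genes were also set against the macrophage sum of the same library. Per 100 FPKM of macrophage markers, *Card9* was at 0.278 and 0.346 FPKM in the WT Sham libraries, 0.261 and 0.308 in the WT MI libraries and 0.375 and 0.370 in Card9 KO MI, with overlap between WT Sham and WT MI. Each of the other 8 was lower in both WT MI libraries than in both WT Sham libraries on this measure. The macrophage sum itself rose in WT MI, so any gene that rises less than that sum falls here by arithmetic. The share of all genes that fall on this measure was not computed. *Syk* went from 2.76 and 2.71 to 1.84 and 1.24, *Prkcd* from 1.96 and 2.18 to 1.54 and 1.19, and *Card10* from 2.87 and 3.19 to 0.684 and 0.576. The macrophage sum is carried largely by *Lyz2*, *C1qa* and *C1qb*, and the difference between *Card9* and the others was not tested.

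**Figure D5:**
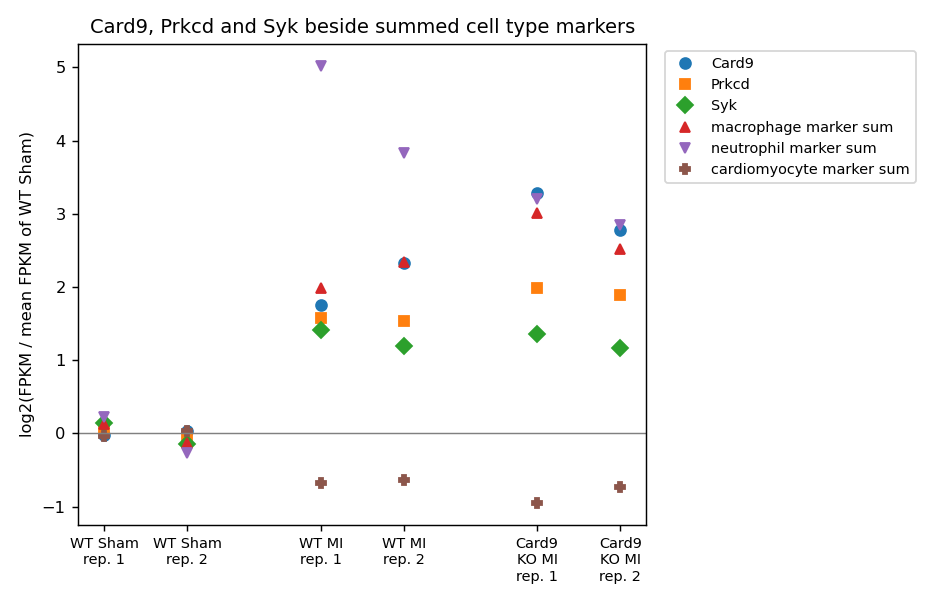
Log2 ratio of each library's FPKM to the WT Sham mean (y axis) for *Card9*, *Prkcd*, *Syk* and 3 summed marker lists, in each of the 6 libraries (x axis). *Card9* reaches 1.75 and 2.33 in WT MI and 3.29 and 2.78 in labelled Card9 KO MI, beside 1.99, 2.34, 3.01 and 2.52 for the macrophage sum and 5.02, 3.84, 3.20 and 2.84 for the neutrophil sum.

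The genes nearest in profile were taken as those with the smallest root-mean-square difference of centred log2(FPKM + 1) values over the 6 libraries. For *Card9* these were *Meg3* (0.0776), *Gtse1* (0.0807) and *C1qc* (0.0837). *C1qc*, which encodes a chain of complement C1q, was at 63.22 and 59.32 FPKM in the WT Sham libraries, 152.79 and 196.53 in the WT MI libraries and 320.43 and 257.65 in Card9 KO MI. *Meg3* was at 5.4 and 5.3, 13.91 and 21.34, and 34.04 and 25.78 FPKM in the same order of groups. *Gtse1* was at 0.58 and 0.61, 2.27 and 3.18, and 6.66 and 5.16 FPKM. Like *Card9*, these 3 genes were higher in the second WT MI library and lower in the second Card9 KO MI library. This follows from their choice by profile. For *Syk* the nearest were *Lmna* (0.0243), *Mvp* (0.0360) and *Man2a1* (0.0556), and *Lmna*, which encodes lamin A/C, was at 53.96 and 47.33, 127.43 and 109.99, and 121.12 and 106.39 FPKM in the same order. For *Malt1* they were *Tmem123* (0.0393), *Itga1* (0.0403) and the endothelial cadherin gene *Cdh5* (0.0445). For *Nod1* they were *Urm1* (0.0466), *Fam216a* (0.0478) and *Fancl* (0.0528). With 6 libraries in 3 groups, many genes share a profile, and the distances are a description.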

How the data were processed

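RNA of heart tissue from 3 groups of 2 libraries was extracted with TRIzol, enriched for mRNA with oligo(dT) beads and sequenced by the authors. They mapped the reads with BWA and Bowtie2 to mm9, per the submitters' processing notes, and for each library deposited the FPKM of every gene above 0, with 2 decimals, under its NCBI gene number. Tool versions, the gene annotation and the use of strand are not given in the sources used here. Groups and replicate numbers came from the sample labels.

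Genes missing from a library were set to 0. Symbols were matched through RefSeq (GRCm38.p6) for 17390 gene numbers, and 51 had none. Gene positions are those of GENCODE on mm9. Depth was estimated from the spacing of low FPKM values. As only 65.6% to 67.9% of low values lay within 0.1 of a whole fragment, counts were not rebuilt and no count test was run. On a transcript of 2 kb, 3 fragments are worth 0.351 to 0.499 FPKM, which covers counting error only.

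Tests used limma 3.58.1 in R 4.3.3 (lmFit and eBayes with trend) on log2(FPKM + 1) for genes that reached an FPKM of 1 in 2 or more libraries. All 3 groups entered a single fit without covariates, in place of the study's screen by fold and probability, which has no p-value. P-values were two-sided and adjusted by the Benjamini-Hochberg method over 13120 genes. With 2 libraries against 2 an exact permutation test cannot reach 0.05, and none was run. Shares, ratios, orders and windows were computed with Python 3.11.15, numpy 2.4.6 and pandas 2.3.3, and figures were drawn with matplotlib 3.10.9.

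Named genes are the 9 genes themselves, genes of the pathway lists that passed the test or had at most the 4 largest changes in a direction, *Card14*, and the 3 nearest profiles of *Card9*, *Syk*, *Malt1* and *Nod1*. *Gm13562*, *Ripk4*, *Zap70* and the marker genes are named outside that rule. 1 gene of the lists is not reported here and enters no list count. The members and lists were chosen with earlier results of these data known. Other settings tried were a pseudocount of 0.1 or 5, all genes without a filter, genes with a mean FPKM of 5 or more, 3 other scalings (upper quartile, quantile, and totals without the 100 most abundant genes), fitting just the pair of groups in question, eBayes with no trend, a replicate block, a 2-fold minimum beside the adjusted p, and leaving out each library in turn.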

Additional observations from a re-analysis of the deposited data

How the results depend on the processing

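The calls of *Card9*, *Syk* and *Prkcd* against WT Sham held in all alternatives that tested them. A mean FPKM of at least 5 left *Card9*, *Nod2* and *Ripk2* untested. In WT MI against WT Sham, 5 of the 9 genes were called, and 3 with a mean FPKM of at least 5, with quantile normalization and with at least 2-fold, and 3 to 5 with a library left out. In Card9 KO MI against WT Sham, 6 were called higher, and 3 with at least 2-fold. There quantile normalization called 1 gene lower, *Card10* (−0.43, limma adjusted p 0.0333). Quantile normalization turned *Malt1* to −0.13 and *Nod2* to −0.12 in WT MI against WT Sham, and *Nod1* to −0.060 in Card9 KO MI against WT Sham. With single libraries left out, 3 small differences changed sign: in Card9 KO MI against WT MI, *Card10* spanned −0.073 to 0.051 (above 0 without WT MI replicate 2, 0.03, or Card9 KO MI replicate 1) and *Syk* −0.15 to 0.063 (above 0 without WT MI replicate 1, or with Card9 KO MI replicate 2 omitted, 0.05), and in Card9 KO MI against WT Sham *Nod2* spanned −0.091 to 0.071 (above 0 without WT Sham replicate 1, 0.06, or Card9 KO MI replicate 1). Of the other pathway genes, 2 were lower in WT MI, against 5 with quantile normalization, 0 with at least 2-fold and 0 to 2 with a library left out. In Card9 KO MI against WT MI 1 was called lower, *Card19*, with a mean FPKM of at least 5. Against WT Sham, 26 were higher in Card9 KO MI, against 15 with quantile normalization, 14 with at least 2-fold and 16 to 23 with a library left out. The 3 lower there became 6 with upper-quartile scaling, 8 with quantile normalization, 6 when scaled without the 100 most abundant genes and 0 with at least 2-fold. These causes were not tested. Deviations of same-numbered libraries correlated at 0.0024, −0.0083 and 0.020 across genes, which shows no shared effect of the replicate number. With 1 such difference per group, these values cannot settle whether samples were paired. With the replicate block the 9 genes gave 5, 0 and 6 calls in the 3 comparisons as without it, and the other pathway genes called higher in Card9 KO MI against WT Sham numbered 23. Depth limits *Nod2* and, in WT Sham, *Card9* and *Card14*. Leaving a library out leaves a lone sample, assumed to vary like the other groups.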
